A study of Danio rerio with 6 samples.

Results

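The genes described here handle vitamin A (retinol) and its derivatives, from transport in plasma to the making and breakdown of retinoic acid. They were taken by name: *rbp4*, *rbp2a*, *stra6*, *bco1*, *rdh10a*, *dhrs3a*, *aldh1a2*, *cyp26a1* and *cyp26b1*, 9 of the 32520 genes in the table. All 9 passed the filter on low counts and were among the 22762 genes tested. RNA was measured in trimmed zebrafish mid-sections at 3 dpf (days post fertilization) in 6 libraries, 3 of homozygous *dgat2* sa13945 mutants and 3 of wild-type siblings. Each library came from a pool of 6 embryos, and clutches 2, 3 and 4 each gave both a mutant and a wild-type pool. The allele is a chemically induced nonsense mutation of *dgat2*, which encodes an enzyme that adds the last acyl chain in triacylglycerol synthesis. The authors propose that this allele may leave some functional protein, and they found that the mutants still made triacylglycerol. Parents were heterozygous carriers, and their progeny were first sorted by eye for an opaque or a normal yolk and then genotyped. No treatment was given to either group. Heads and tails were cut away, so that each library held the yolk sac with its yolk syncytial layer (YSL, the tissue that takes up yolk and secretes lipoproteins) and the dorsal musculature with the rest of the trunk. In such bulk samples, fewer cells of a type and less RNA per cell cannot be told apart.

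Vertebrates cannot make retinoids anew and obtain them from food or, in the embryo, from yolk, which in fish holds retinal and carotenoids. Retinol travels in plasma bound to Rbp4 and enters cells through the membrane receptor Stra6. Inside cells, retinol is oxidised to retinal and retinal to retinoic acid, which binds nuclear receptors and sets gene expression in the hindbrain, trunk, heart and gut, and Cyp26 enzymes then remove it. The question asked of the data was whether the RNA of these steps differed between *dgat2* mutants and wild-type siblings, in all pools and within each clutch.

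The libraries held between 45958694 and 59166585 counts, and the lowest mutant total, 52476194, was above the highest wild-type total, 49918655. Depth thus moved with genotype, and its part in the results was not tested. Counts of the 9 genes ran from 524 to 43505 per library. Of their 54 values, 51 were whole numbers within 0.01, so that few reads were shared out between genes. Values of a gene are given as CPM (counts per 1000000 after TMM scaling of library sizes), and levels of different genes are compared in TPM (transcripts per 1000000, scaled for transcript length). *dgat2* itself was measured at 21.7, 9.78 and 20.6 CPM in mutants from clutches 2, 3 and 4, and at 28.3, 15.7 and 4.41 CPM in their wild-type siblings. The groups overlapped, and the log2 fold change of mutant over wild type was 0.10 (SE 0.56, interval -1.18 to 1.39, n = 3 pools per genotype), so the level of the *dgat2* transcript does not tell the genotypes apart. Skeletal muscle markers summed to between 91334 and 108580 CPM, so muscle was present. Markers shared by the YSL and hepatocytes summed to between 9640 and 18339 CPM. Markers listed as hepatocyte-restricted, at 372 to 866 CPM, were present too, so the shared markers do not show the YSL by themselves. *cp*, at 16.0 to 59.5 CPM, is on both lists, so these sums are not fully separate. Of 12 retina and lens markers, 0 reached a TPM of 1 in 3 libraries (highest 0.489), and eye tissue was thus near absent after trimming.

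None of the 9 genes passed an adjusted p of 0.05 between mutants and wild-type siblings in edgeR's quasi-likelihood test, in either direction. Across all genes tested, 0.0132% were called higher in mutants and 0.0% lower. With the clutch as a replicate block, each mutant pool is compared with its own siblings. Again 0 of the 9 were called in edgeR, beside 0.272% of all genes called higher and 0.0659% called lower. Both edgeR fits thus called few genes of any kind. DESeq2, the test the authors used, called more: 160 of 28258 genes without the block and 358 of 28272 with it. Of the 9 genes, it called 0 in both fits. Of the 9 genes, 5 had a log2 fold change above 0 and 4 below it. Their median was 0.00 against -0.01 over all genes tested, and their median absolute change was 0.20 against 0.14. At an unadjusted p under 0.05, 0 of the 9 were higher, beside 3.21% of all genes, and 1 was lower (*cyp26b1*), beside 1.99%. With the clutch as a block, 1 was higher (*bco1*), beside 5.14%, and 1 was lower (*cyp26b1*), beside 3.05%. A p that misses the threshold does not show that levels were alike, and the 95% interval of each difference is therefore given below.

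**Figure D1:**
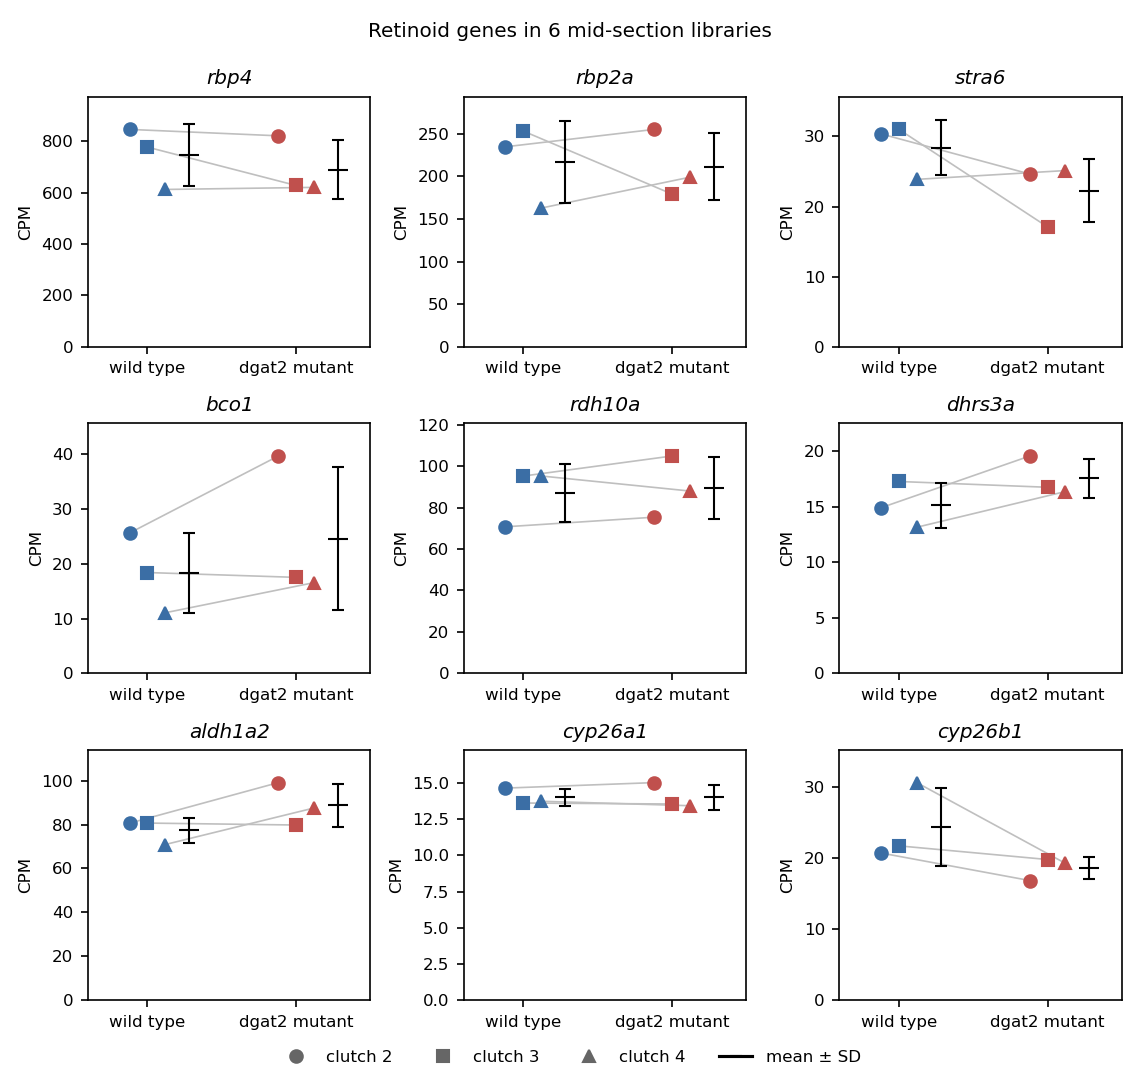
Level of each of the 9 genes in CPM (vertical axis, from 0) in 3 wild-type (blue) and 3 *dgat2* mutant (red) libraries; symbols mark the clutch, grey lines join pools of the same clutch, and black bars are the mean ± SD of each genotype. The genotypes overlap for 8 genes, and for *cyp26b1* the 3 mutant pools (16.9 to 19.8 CPM) lie below the 3 wild-type pools (20.7 to 30.7 CPM).

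The carriers of retinol were by far the most abundant of the 9. *rbp4*, which encodes the plasma carrier that brings retinol to tissues, was measured at 743 ± 117 TPM in mutants and 825 ± 195 TPM in wild-type siblings (mean ± SD, n = 3 pools each). Its mean over the 6 libraries, 784 TPM, exceeded the mean of 99.2% of genes tested. In CPM, *rbp4* (ENSDARG00000101199) was at 821, 628 and 621 in mutants from clutches 2, 3 and 4 and at 846, 777 and 612 in their siblings. Both pools of clutch 2 were high and both of clutch 4 low, and the genotypes overlapped. The log2 fold change was -0.11 (SE 0.16, 95% interval -0.47 to 0.25). Within clutches the log2 differences were -0.04, -0.31 and 0.02, so that most of the fitted difference lay in clutch 3.

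*rbp2a* (ENSDARG00000070038) encodes a cellular retinol-binding protein whose mammalian counterpart carries retinol inside the absorptive cells of the intestine. It was at 255, 179 and 199 CPM in mutants from clutches 2, 3 and 4 and at 234, 253 and 163 CPM in their siblings. The wild-type pools spanned the whole range of the mutant pools except the highest mutant value. The log2 fold change was -0.04 (SE 0.19, interval -0.47 to 0.39), and its sign differed between clutches, at 0.12, -0.50 and 0.29. In TPM, *rbp2a* stood at 434 over the 6 libraries and at 49.0% to 60.4% of *rbp4* in each library.

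*stra6* (ENSDARG00000051874) encodes the receptor through which cells take up retinol from Rbp4. Mutant pools were at 24.6, 17.1 and 25.1 CPM and sibling pools at 30.3, 31.0 and 23.9 CPM in clutches 2, 3 and 4. The 2 highest values were both wild type and the lowest was the mutant pool of clutch 3, but the wild-type pool of clutch 4 lay below 2 mutant pools. The log2 fold change was -0.35 (SE 0.17, interval -0.75 to 0.05), with adjusted p = 0.989 in edgeR and 0.650 when blocked by clutch. Within clutches the log2 differences were -0.30, -0.86 and 0.07. The estimate was -0.19 without the mutant pool of clutch 3, -0.12 without both pools of that clutch and -0.56 without both pools of clutch 4.

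*bco1* (ENSDARG00000104256) encodes the enzyme that cleaves beta-carotene into retinal. It was at 39.7, 17.5 and 16.6 CPM in mutants from clutches 2, 3 and 4 and at 25.6, 18.4 and 11.1 CPM in their siblings. It varied most among the 9 genes, with its highest library 3.58 times its lowest, and the libraries ranked by clutch, with both pools of clutch 2 highest, then both of clutch 3, then both of clutch 4. The log2 fold change was 0.42 (SE 0.39, interval -0.47 to 1.31). Blocked by clutch, it was 0.38 (SE 0.15, interval 0.03 to 0.74, adjusted p = 0.555 in edgeR). Within clutches the log2 differences were 0.63, -0.07 and 0.58. Without the mutant pool of clutch 2 the estimate was -0.11. Summed markers of the intestine, which in vertebrates expresses *bco1*, were at 1380, 527 and 932 CPM in mutants and at 690, 496 and 587 CPM in siblings, so that the mutant pools of clutches 2 and 4 were highest there. All 5 intestine markers tested had a log2 fold change above 0, with a median of 0.76. Markers of pancreatic acinar cells summed to 1861, 278 and 795 CPM in mutants and 1274, 233 and 241 CPM in siblings, and all 13 tested were above 0 with a median of 0.82. Hepatocyte-restricted markers were at 866, 629 and 694 CPM in mutants and 670, 586 and 372 CPM in siblings, with all 6 above 0. None of these markers was called without the block. With it, *fabp6* of the intestine list and *ela2l* of the acinar list were called higher. So was *apoa4b.2* of the list shared by the YSL and hepatocytes (log2 fold change 1.51, adjusted p = 0.0039 in edgeR with the block). The part of these markers in the values of *bco1* was not tested.

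The enzymes between retinol and retinal differed little. *rdh10a* (ENSDARG00000058730) encodes the dehydrogenase that oxidises retinol to retinal. It was at 75.3, 105 and 87.9 CPM in mutants and at 70.7, 95.2 and 95.2 CPM in siblings of clutches 2, 3 and 4. Both pools of clutch 2 were low whatever their genotype, and the groups overlapped throughout. The log2 fold change was 0.04 (SE 0.16, interval -0.33 to 0.40), with 0.09, 0.14 and -0.11 within clutches. *dhrs3a* (ENSDARG00000044982) encodes a reductase that returns retinal to retinol and whose expression retinoic acid raises. Mutant pools held 19.6, 16.8 and 16.4 CPM and sibling pools 14.9, 17.3 and 13.2 CPM. The mutant pools were higher in clutches 2 and 4 and close to their siblings in clutch 3, with log2 differences of 0.39, 0.31 and -0.04. The fitted log2 fold change was 0.22 (SE 0.14, interval -0.10 to 0.53).

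*aldh1a2* (ENSDARG00000053493) encodes the dehydrogenase that makes most retinoic acid in the embryonic trunk. It was at 99.1, 79.8 and 87.5 CPM in mutants from clutches 2, 3 and 4 and at 80.6, 80.7 and 70.9 CPM in their siblings. The 2 highest values were mutant pools, but the mutant pool of clutch 3 was below 2 wild-type pools. The log2 fold change was 0.20 (SE 0.11, interval -0.06 to 0.46), from 0.30, -0.02 and 0.30 within clutches. *aldh1a2* and *dhrs3a* had the most similar pattern of any pair of the 9. Their log2 CPM, centred on each gene's mean, differed by a root mean square of 0.085 over the 6 libraries, against 0.11 for *rbp4* and *rbp2a* and 0.80 for the least similar pair, *bco1* and *cyp26b1*. These are descriptions over 6 libraries that share clutches and depth.

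**Figure D2:**
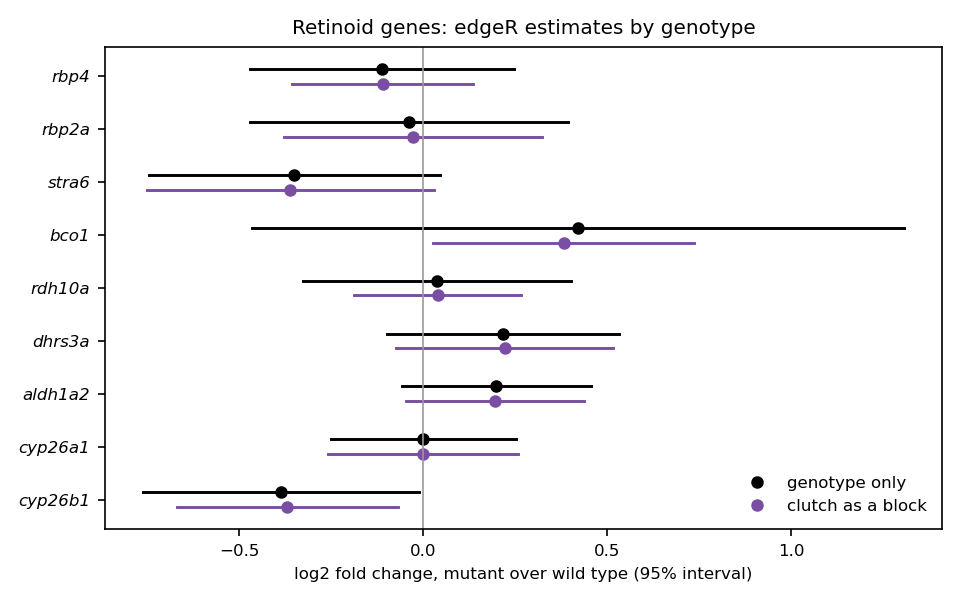
Log2 fold change of mutant over wild type (horizontal axis) for the 9 genes, as points with 95% intervals, from edgeR with genotype only (black) and with the clutch as a block (purple). With genotype only, the interval of *cyp26b1* (-0.76 to -0.01) is the single interval that leaves out 0; with the clutch as a block those of *cyp26b1* and *bco1* do, and 0 of the 9 pass adjustment over all genes in either fit.

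The cytochrome P450 enzymes that break down retinoic acid gave the steadiest and the most separated values of the set. *cyp26a1* (ENSDARG00000033999), which retinoic acid induces, was at 15.0, 13.6 and 13.4 CPM in mutants and at 14.7, 13.6 and 13.8 CPM in siblings. The highest library was 1.12 times the lowest, the smallest ratio among the 9 genes. Its log2 fold change was 0.00 (SE 0.11), and the interval of -0.25 to 0.25 leaves out larger changes in either direction. *cyp26b1* (ENSDARG00000077121) encodes the related enzyme that acts mainly in the hindbrain, skeleton and fins of fish embryos. It was at 16.9, 19.8 and 19.3 CPM in mutants from clutches 2, 3 and 4 and at 20.7, 21.7 and 30.7 CPM in their siblings. Every mutant pool was below every wild-type pool in CPM, which held for 4.65% of all genes tested, and the reverse held for 5.14% and for 0 of the 9. The pools of *cyp26b1* did not overlap in TPM either, but the share of all genes for which that held was not counted. The difference was not past the threshold: the log2 fold change was -0.39 (SE 0.16, interval -0.76 to -0.01, adjusted p = 0.951 in edgeR), and in the fit blocked by clutch it was -0.37 (SE 0.13, adjusted p = 0.458). With 3 pools per genotype the smallest p of an exact two-sided permutation test is 0.1, which any gene with separate groups reaches, so that test adds nothing here. Within clutches the log2 differences were -0.30, -0.13 and -0.67.

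The wild-type pool of clutch 4 carried much of the *cyp26b1* difference: without it the log2 fold change was -0.19, and without both pools of clutch 4 it was -0.21. That pool also stood apart in neural genes. Summed central nervous system markers, a list drawn up after the data were seen, were at 1728 CPM there and at 1206 to 1400 CPM in the other 5 libraries. *cyp26c1*, the third enzyme of the family and known from the hindbrain, was at 7.29 CPM in that pool and at 2.04 to 3.06 CPM elsewhere, and *crabp1a*, a cellular retinoic acid-binding protein, at 5.75 CPM against 1.25 to 2.30 CPM. Both were picked for naming once their values had been seen. Of the 12 neural markers, 2 had a log2 fold change above 0, with a median of -0.20. Within clutches 2, 3 and 4 the log2 differences of their sum were 0.04, 0.18 and -0.42. Only in clutch 4 was the sign that of *cyp26b1*. The same differences were -0.03, 0.48 and -1.45 for *cyp26c1* and -0.68, 0.35 and -1.31 for *crabp1a*. Whether the neural tissue left in each section had a part in the *cyp26b1* values was not tested. The same pool had the lowest sum of the YSL and hepatocyte markers, 9640 CPM against 12447 to 18339 CPM elsewhere, and the lowest *rbp4*, *rbp2a*, *bco1*, *dhrs3a* and *aldh1a2* of the 6 libraries. Without it the log2 fold change of *rbp4* was -0.24.

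**Figure D3:**
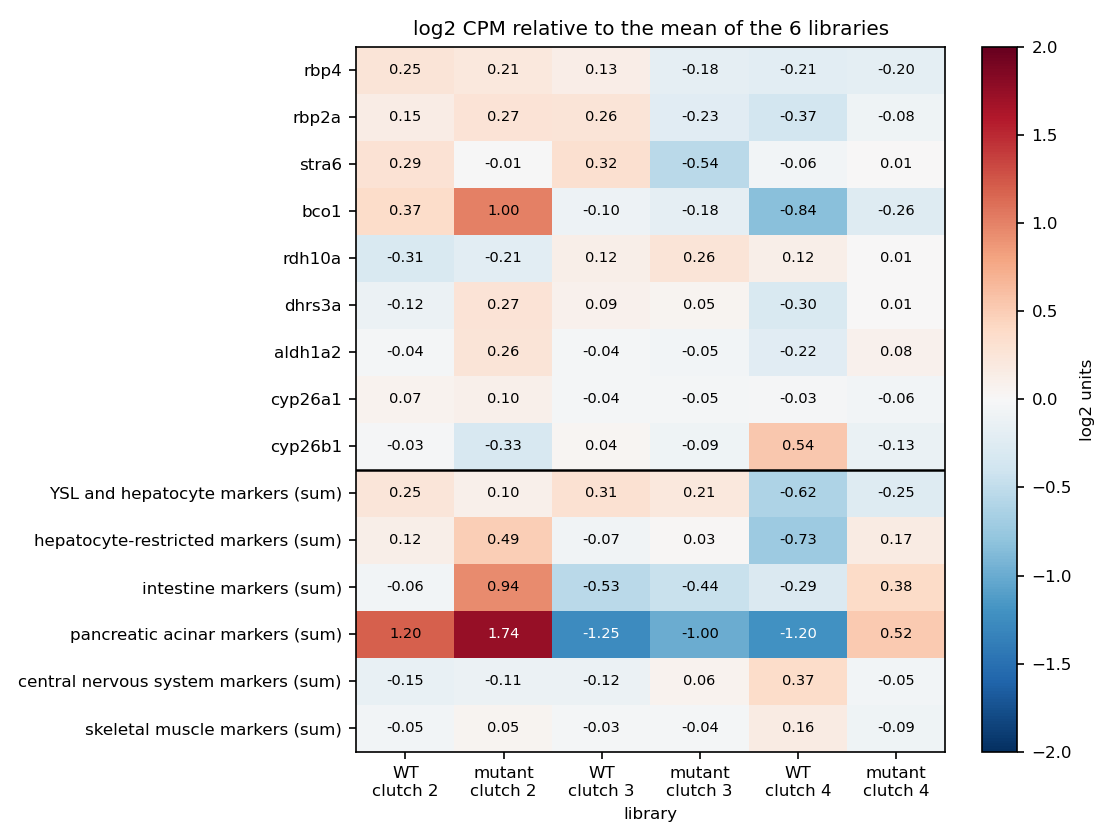
Log2 CPM of the 9 genes and of 6 summed marker lists in each library, relative to the mean of the 6 libraries (colour, with the value in each cell); libraries are ordered by clutch. In the wild-type pool of clutch 4, *cyp26b1* stands at 0.54 and the central nervous system markers at 0.37, while *bco1* is at -0.84 and the YSL and hepatocyte markers at -0.62.

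The clutch was visible in several of the genes. In a test of the clutch term with genotype in the model, 3 of the 9 had an unadjusted p under 0.05 (*rbp4*, *bco1* and *rdh10a*), beside 12.2% of all genes tested, and 0 of the 9 had an adjusted p under 0.05, beside 0.536%. *bco1* came closest, with clutch means of 32.6, 18.0 and 13.8 CPM in clutches 2, 3 and 4 and an adjusted p of 0.0657 in edgeR. A likelihood ratio test of the same term in DESeq2 called *bco1* (adjusted p = 4.0e-06), among 596 of 23921 genes with an adjusted p. *rdh10a* went the other way, with the lowest mean in clutch 2 (73.0 CPM, against 91.6 CPM in clutch 4 and the highest mean in clutch 3). The clutch differences of *rbp4* were smaller, from 834 CPM in clutch 2 to 703 and 616 CPM in clutches 3 and 4.

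Set side by side in TPM, the 9 genes fell into a clear order at the top and a blurred one below. *rbp4* in its lowest library (626 TPM) exceeded *rbp2a* in its highest (522 TPM), and *rbp2a* in its lowest (307 TPM) exceeded all the enzymes. *rdh10a* followed at 35.3 TPM, with no overlap with *aldh1a2* at 23.8 TPM (lowest *rdh10a* 29.4, highest *aldh1a2* 28.1). *bco1* at 11.8 TPM, *dhrs3a* at 9.40, *stra6* at 8.20 and *cyp26a1* at 7.55 overlapped each with its neighbour in this order, and *bco1* also reached into the range of *aldh1a2*. *cyp26b1* had the lowest mean at 5.24 TPM, its highest library (6.71) just under the lowest of *cyp26a1* (6.75). Its range still overlapped those of *bco1* (lowest 5.63) and *stra6* (lowest 5.15). The 9 genes together made up between 0.102% and 0.165% of all TPM, chiefly through *rbp4* and *rbp2a*. The genes whose pattern over the 6 libraries was most like that of *rbp4*, by the root mean square difference of centred log2 CPM, were *IQSEC2* (0.037), *jph1a* (0.051), *selenoi* (0.054), *slc48a1b* (0.058) and *tmem39a* (0.058), where *rbp4* itself varied about its mean by 0.20. By gene order in the GRCz12tu assembly, 0 of the 9 lay on the chromosome of *dgat2*.

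The rest of the pathway was covered by 70 other listed genes in 9 roles, of which 63 were in the table and 59 were tested. None of the 59 passed an adjusted p of 0.05 in edgeR, without or with the clutch as a block. DESeq2 with that block called *ttr*, among 358 of 28272 genes. At an unadjusted p under 0.05 without the block, 4 of the 59 were higher and 4 lower in mutants, beside 3.21% and 1.99% of all genes tested. With the block, 12 of the 59 had an unadjusted p under 0.05 in either direction. Of all genes tested, 5.14% were then higher and 3.05% lower at that limit. In CPM, 5 of the 59 lay wholly above and 5 wholly below the wild-type pools, beside 5.14% and 4.65% of all genes. Of these 10, only *lratb.1* and *rdh5* also had separate groups in TPM. Without the block, the smallest adjusted p in edgeR was 0.647 for *stra6l*, which encodes a second retinol receptor related to Stra6 and known from liver and intestine of fish and mice. *stra6l* was at 15.5, 12.3 and 15.2 CPM in mutants and at 10.3, 10.4 and 7.18 CPM in siblings. In CPM all mutant pools were above all wild-type pools, with a log2 fold change of 0.63, opposite in sign to that of *stra6*.

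Among the binding proteins, some signs changed with the clutch as a block. Without it, 13 of 16 tested had a log2 fold change below 0 (median -0.12, against -0.01 over all genes tested). *rbp4* was the most abundant of them. *ttr*, which encodes transthyretin, the partner of Rbp4 in mammalian plasma, went the other way at 32.3, 8.60 and 22.5 CPM in mutants and 19.6, 6.07 and 10.4 CPM in siblings. Each mutant pool was above its own sibling pool, although the groups overlapped. Its log2 fold change was 0.81, or 0.78 with the clutch as a block (adjusted p = 0.0998 in edgeR). DESeq2 with the same block called it, with adjusted p = 0.0013, among 358 of 28272 genes. *ttr* was also the 1 listed gene with a clutch term past the threshold in edgeR (adjusted p = 0.0170), and it is named here after its values were seen. The summed intestine, acinar and hepatocyte-restricted markers given with *bco1* were, like *ttr*, highest in the mutant pool of clutch 2. Each of these sums was also higher in every mutant pool than in its own sibling pool. The full order of the libraries was that of *ttr* in the intestine sum only, a match found after the values were seen. The part of these markers in the values of *ttr* was not tested.

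For carotenoid uptake and cleavage, all 6 genes tested had a log2 fold change above 0 (median 0.37), and 0 of them were called or separated the genotypes. The most abundant was *cd36*, a scavenger receptor, at 20.2 TPM. The part of the intestine, acinar and hepatocyte-restricted markers in the values of the carotenoid genes was not tested. For retinyl ester formation and isomerisation, all 4 tested were below 0 (median -0.27). The table's *LRAT* (listed as *lratb.1*, a relative of the acyltransferase that esterifies retinol for storage) was at 1.36, 1.77 and 1.21 CPM in mutants and at 2.81, 2.40 and 2.37 CPM in siblings. Its groups did not overlap, at a log2 fold change of -0.80, and at a low level. *rpe65b*, of the retinoid isomerase family, was also lower in every mutant pool than in any wild-type pool in CPM (-0.35) and was the most abundant gene of that role at 6.14 TPM.

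Of the 14 dehydrogenases and reductases tested between retinol and retinal, 10 were above 0 and 4 below, with a median of 0.16 and *rdh10a* the most abundant. *rdh5* (0.65) and *rdh14a* (0.33) had mutant pools above all wild-type pools in CPM and *rdh12* (-0.42) below them, and none of them was called. For retinoic acid synthesis, *aldh8a1*, an aldehyde dehydrogenase related to the Aldh1a enzymes, was the most abundant at 30.2 TPM, with a log2 fold change of 0.33.

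Of the nuclear receptors and the genes known to respond to retinoic acid, 0 were called. The 10 receptors tested had a median log2 fold change of -0.04 and ranged from -0.36 to 0.31. In CPM, the mutant pools of *rarab* (0.06) and *rxrga* (0.31) lay above the wild-type pools and those of *rarga* (-0.22) below them. *rxrga* had the highest mean TPM of the receptor genes, 34.6, but its TPM ran from 3.88 to 61.3 over the libraries, overlapped between genotypes and averaged lower in mutants (32.7 against 36.5), opposite to the direction in CPM. The 10 responsive genes, chiefly anterior *hox* genes, had a median of -0.01 and ranged from -0.31 to 0.09. The lowest was *hoxb4a*, at 10.9, 15.5 and 13.4 CPM in mutants against 15.9, 17.3 and 16.1 CPM in siblings. These groups did not overlap in CPM, but *hoxb4a* was not called. *hoxb5a*, the most abundant of the responsive genes at 41.1 TPM, had a log2 fold change of -0.04.

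**Figure D4:**
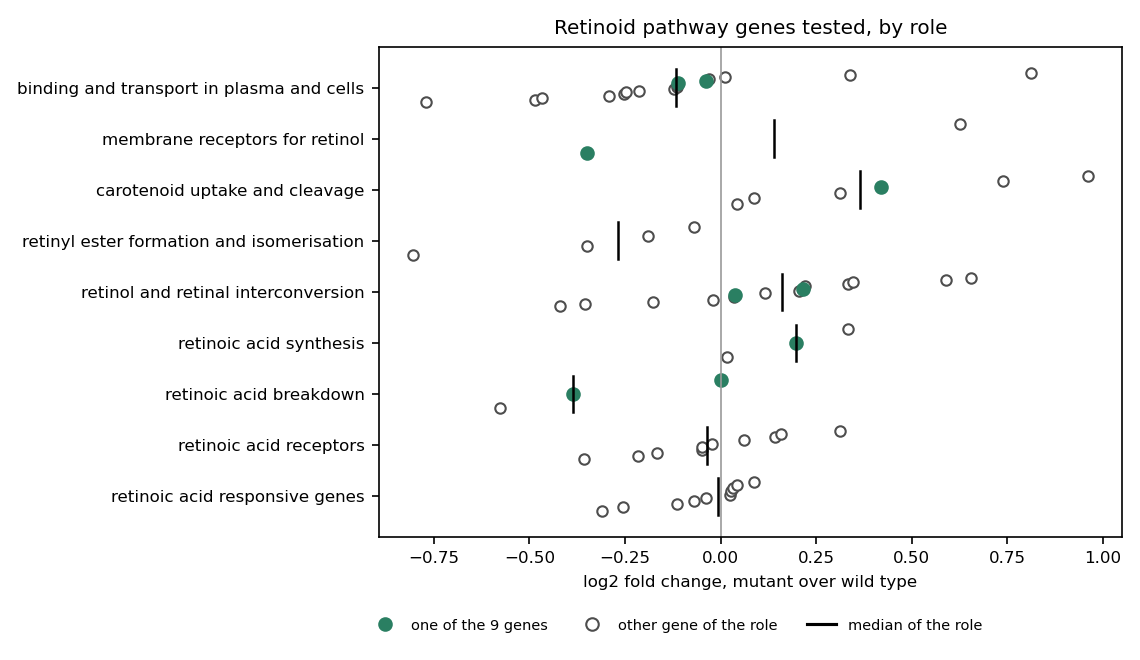
Log2 fold change of mutant over wild type (horizontal axis) for the 68 tested genes of the retinoid list by role (rows; the small vertical offsets only separate points), with the 9 genes filled and the median of each role as a bar. Points lie on both sides of 0 in most roles, with all 6 carotenoid genes above 0 (median 0.37), all 3 synthesis genes above 0 and all 4 retinyl ester genes below it (median -0.27), and 0 of the 68 are called in edgeR (DESeq2 with the clutch as a block called *ttr*).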

How the data were processed

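RNA was sequenced from poly(A)-selected libraries that do not mark strand, so overlapping antisense transcripts cannot be told apart. The authors mapped reads to GRCz11 with STAR 2.7.9a and deposited estimated counts from Salmon 1.10.1, not scaled for library size. They also deposited TPM values, scaled for transcript length and library size. Estimated counts were rounded and tested with edgeR 4.0.16 in R 4.3.3 (TMM factors, filterByExpr, quasi-likelihood test on genotype), with Benjamini-Hochberg adjustment over 22762 genes. Standard errors were taken as |log2 fold change| divided by √F, and 95% intervals use the t distribution. Log2 CPM had a prior count of 2.

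Each clutch gave both genotypes, so the design pairs the libraries. Deviations from the genotype means correlated at 0.351, 0.309 and 0.185 within clutches and at -0.299 to 0.0311 between them. Alternatives were the clutch as a block, DESeq2 1.42.0 with and without transcript length offsets, other factors and filters, limma 3.58.1 on log2 TPM with 1 or 0.1 added, and each library left out. Leaving out each clutch, the clutch test and the neural marker list were added once the data had been seen. The 9 genes and all lists were chosen with earlier results of these data known. Named beside the 9 are *dgat2*, the most abundant gene of each role and the 5 genes most like *rbp4*. Listed genes that were called, or whose groups did not overlap in CPM, are named too. *rbp7b* and *rargb*, whose mutant pools were below the wild-type pools in TPM but not in CPM, fell outside this rule. *ttr*, *cyp26c1* and *crabp1a*, and the markers called with the block, were named outside this rule, after their values were seen. How much of the spread between pools was counting error was not tested. The 9 genes had at least 524 counts per library, but *crabp1a* had only 66 to 272.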

Additional observations from a re-analysis of the deposited data

How the results depend on the processing

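Of the 9 genes, 0 were called in any of the 21 fits made, where the smallest adjusted p was 0.326 (*cyp26b1*, DESeq2 with transcript length offsets). Over all genes, the calls ran from 0 of 23137 (without the mutant pool of clutch 2) to 358 of 28272 (DESeq2 with the clutch as a block). A fit that called almost no gene could hardly call 1 of the 9, so such fits add little here. *rbp4*, *stra6*, *dhrs3a*, *aldh1a2* and *cyp26b1* kept the sign of their log2 fold change in all of them. *cyp26a1*, at 0.00, was -0.00092 with the clutch as a block, -0.0015 with length offsets, -0.012 with upper quartile factors, -0.023 and -0.026 with limma on log2(TPM + 1) and log2(TPM + 0.1), -0.023 with limma on log2(TPM + 1) and no filter, -0.019 without clutch 2 and -0.053 to 0.034 with single libraries left out. With single libraries left out, *rbp4* ran from -0.26 (without the mutant pool of clutch 2) to -0.01 (without the wild-type pool of clutch 2), *stra6* from -0.46 to -0.19, *dhrs3a* from 0.12 (without the wild-type pool of clutch 4) to 0.32, and *aldh1a2* from 0.11 (without the mutant pool of clutch 2) to 0.27. With both pools of clutch 3 left out, *rbp2a* was at 0.19 and *rdh10a* at -0.022. With single libraries left out, they ran from -0.21 to 0.088 and from -0.092 to 0.15, *bco1* from -0.11 to 0.74, and the median of the 9 genes from -0.11 to 0.088. DESeq2 with the clutch as a block called 1 other pathway gene (*ttr*), against 0 in edgeR, where it called 358 of all 28272 genes. Its likelihood ratio test of the clutch called 1 of the 9 (*bco1*), against 0. The cause of these shifts was not tested. With 3 pools per genotype, the intervals without the block leave room for changes of up to 0.25 (*cyp26a1*) to 1.31 (*bco1*) on the log2 scale. With the clutch as a block, the interval was -0.26 to 0.26 for *cyp26a1*, 0.03 to 0.74 for *bco1* and -0.75 to 0.03 for *stra6*.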
